A study of Mus musculus with 36 samples.

Results

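The estrogen-related receptors are ERRalpha, ERRbeta and ERRgamma, orphan members of the nuclear receptor superfamily that the mouse encodes with Esrra, Esrrb and Esrrg. These 3 genes were taken by symbol from the 17873 genes with a value in the deposited table, and each had a value in all 36 libraries. RNA was sequenced from soleus, a hindlimb muscle rich in slow oxidative fibres, and from extensor digitorum longus (EDL), rich in fast fibres. Each muscle came from 3 classes of mice whose floxed receptor genes were crossed to Cre recombinase driven by the human alpha-skeletal actin (HSA) promoter. The classes were labelled as lacking ERRalpha (ERRalpha mKO), ERRbeta with ERRgamma (ERRbeta/ERRgamma dmKO) or ERRalpha with ERRgamma (ERRalpha/ERRgamma dmKO) in muscle, and each had its own wild-type (WT) littermates.

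This gave 12 groups of 3 libraries. In each class and each muscle a knockout-labelled group stood against a wild-type group. All mice were 1-year-old males on the C57BL/6JBom background, kept at about 22 °C on chow. The wild types were read as carrying floxed alleles without Cre, and the knockout-labelled mice as carrying floxed alleles with Cre, from marks in the column names. The direction of every change rests on that reading. The HSA promoter acts in muscle fibres, so vessels, nerve and other cells of the muscle keep the receptor genes.

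ERRs bind DNA as monomers or dimers at a short element and activate transcription without a known natural hormone, depending instead on coactivators such as PGC-1alpha, PGC-1beta and PERM1. In striated muscle they are known for driving genes of mitochondrial respiration, the tricarboxylic acid cycle and fatty acid oxidation. ERRalpha is broadly expressed in oxidative tissues, and ERRgamma is known for its abundance in slow muscle.

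The 3 genes encode closely related DNA-binding domains, so reads could in principle be shared between them. The stretch below encodes the start of the recognition helix, the part of the first zinc finger that contacts the element. It is shown because it lies in the most conserved domain of the family, and capitals mark the bases that differ from at least 1 of the other receptors. The sequences were read from GENCODE M21 transcripts, 5′ to 3′.
Esrra: tgTgaGgcCtgcaaAgcCttcttcaagagG
Esrrb: tgCgaGgcTtgcaaGgcGttcttcaagagA
Esrrg: tgTgaAgcCtgcaaGgcAttcttcaagagG
Esrra and Esrrg were identical at 27 of these 30 bases, Esrra and Esrrb at 25, and Esrrb and Esrrg at 25. Even so, no run of 31 bases was shared between the transcripts of any pair of receptors, nor any run of 50 or 75.

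On GRCm38, Esrra lies on chromosome 19 from 6910977 to 6921813 on the minus strand. Esrrb lies on chromosome 12 from 86361117 to 86521628 on the plus strand, and Esrrg on chromosome 1 from 187608791 to 188214885 on the plus strand. Their merged exons span 4387 bp for Esrra, 6047 bp for Esrrb and 6208 bp for Esrrg. The last exon of Esrra overlaps an exon of Trmt112, a gene on the opposite strand (6909698 to 6911049) that encodes a methyltransferase cofactor. The libraries were directional, but the labels do not say whether the counting used strand, so reads in this overlap may belong to either gene.

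Values are log2 signals that the authors quantile normalized, and lowest values fell with exon length as in a signal scaled by length, so levels of different genes are compared on that per-length scale. Libraries held 13667 to 14951 genes with a value, and correlated at 0.939 to 0.984 (Pearson, across genes) within their groups. Fibre markers went with the muscle labels: the summed linear signal of 8 slow fibre genes was 10042 to 20629 in soleus libraries and 21.3 to 144 in EDL libraries. Library 2 of knockout-labelled soleus of the ERRbeta/ERRgamma class (a number given in column order only) had 14160 genes with a value. The other 2 of its group had 14846 and 14764, and the soleus wild types of that class had 14162, 14480 and 14178. Without knockout-labelled library 2, 2139 genes were called in that comparison in place of 898, and the receptors' changes there are given with and without it.

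Signals are given per gene, without the counting method, and the labels do not name the exons removed by Cre. A shortened transcript that still holds the remaining exons may thus be counted. The signal of a targeted gene is therefore no direct check of its deletion. Of the targeted receptors, Esrra was called lower in both knockout-labelled muscles of the ERRalpha/ERRgamma class and in neither of the ERRalpha class. Esrrb was called in neither muscle of the ERRbeta/ERRgamma class, and Esrrg had higher mean signals in each of the 4 knockout-labelled groups that target it.

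In wild-type muscle Esrra was the most abundant of the receptors, and Esrrb and Esrrg differed far more between muscles than Esrra did. Esrra had a log2 signal of 5.54 ± 0.23 in soleus and 5.21 ± 0.14 in EDL (SD, n = 9 each), at the 93.9 and 92.4 percentile of the genes kept for testing. Esrrg had 3.60 ± 0.27 in soleus and 1.32 ± 0.19 in EDL, the 79.7 and 47.9 percentile. Esrrb had 2.71 ± 0.28 in soleus and 0.17 ± 0.40 in EDL, the 67.9 and 33.4 percentile. The ranges of the 9 soleus and 9 EDL libraries did not overlap for Esrrb (2.26 to 3.14 and -0.54 to 0.73) or Esrrg (3.06 to 3.90 and 0.96 to 1.58), while those of Esrra did (5.27 to 5.95 and 4.92 to 5.38).

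The soleus minus EDL difference was 2.54 ± 0.12 (SE) for Esrrb, a 5.82-fold higher signal, and 2.28 ± 0.086 for Esrrg, a 4.85-fold higher signal. For Esrra it was 0.33 ± 0.067, or 1.26-fold. All 3 were called by limma (Benjamini-Hochberg adjusted p = 1.02e-16, 8.58e-19 and 0.000105), in a comparison that called 54.4% of all genes tested. In the 7 wild-type animals with both muscles, Esrrb minus Esrra was 2.22 higher in soleus than in the EDL of the same animal, and Esrrg minus Esrra 1.85 higher (exact sign-change p = 0.0156 each, the smallest possible, and 0.0208 adjusted over 4 measures). Esrrb minus Esrrg was 0.36 higher in those animals, which did not pass (exact p = 0.109). The muscles thus differed in how much of Esrra's signal its relatives reached, by amounts that did not separate Esrrb from Esrrg.

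As shares of the summed linear signal of the 3 genes, Esrra made up 71.2% ± 3.07 in wild-type soleus and 90.9% ± 1.26 in wild-type EDL (SD, n = 9 each). Esrrg made up 18.7% ± 2.92 in soleus and 6.23% ± 1.02 in EDL. Esrrb made up 10.1% ± 1.79 in soleus and 2.85% ± 0.76 in EDL. The summed signal itself was 66.1 ± 9.57 in soleus and 40.8 ± 3.47 in EDL, and its log2 value was 0.69 higher in soleus (exact permutation test of 9 against 9 libraries, p = 4e-05, the smallest possible). That permutation took no account of class or animal. Within the 7 wild-type animals with both muscles it was 0.67 higher (exact sign-change p = 0.0156, the smallest possible, and 0.0208 adjusted over 4 measures). Soleus thus had a larger summed signal, and a larger share of it from Esrrb and Esrrg.

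Among the 45 genes of the nuclear receptor family with a value, Esrra ranked first in wild-type soleus and second in wild-type EDL. Genes below it in soleus included Nr1d2 (5.19), Nr1d1 (4.90) and Thra (4.03), and in EDL it came after Nr1d2 (5.30) and before Nr1d1 (4.67) and Rxra (4.50). Nr1d1 and Nr1d2 encode the REV-ERB repressors of the clock, Rxra a partner of many receptors, and Thra a thyroid hormone receptor. Esrrg ranked 8 in soleus and 23 in EDL, and Esrrb 14 in soleus and 29 in EDL.

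**Figure D1:**
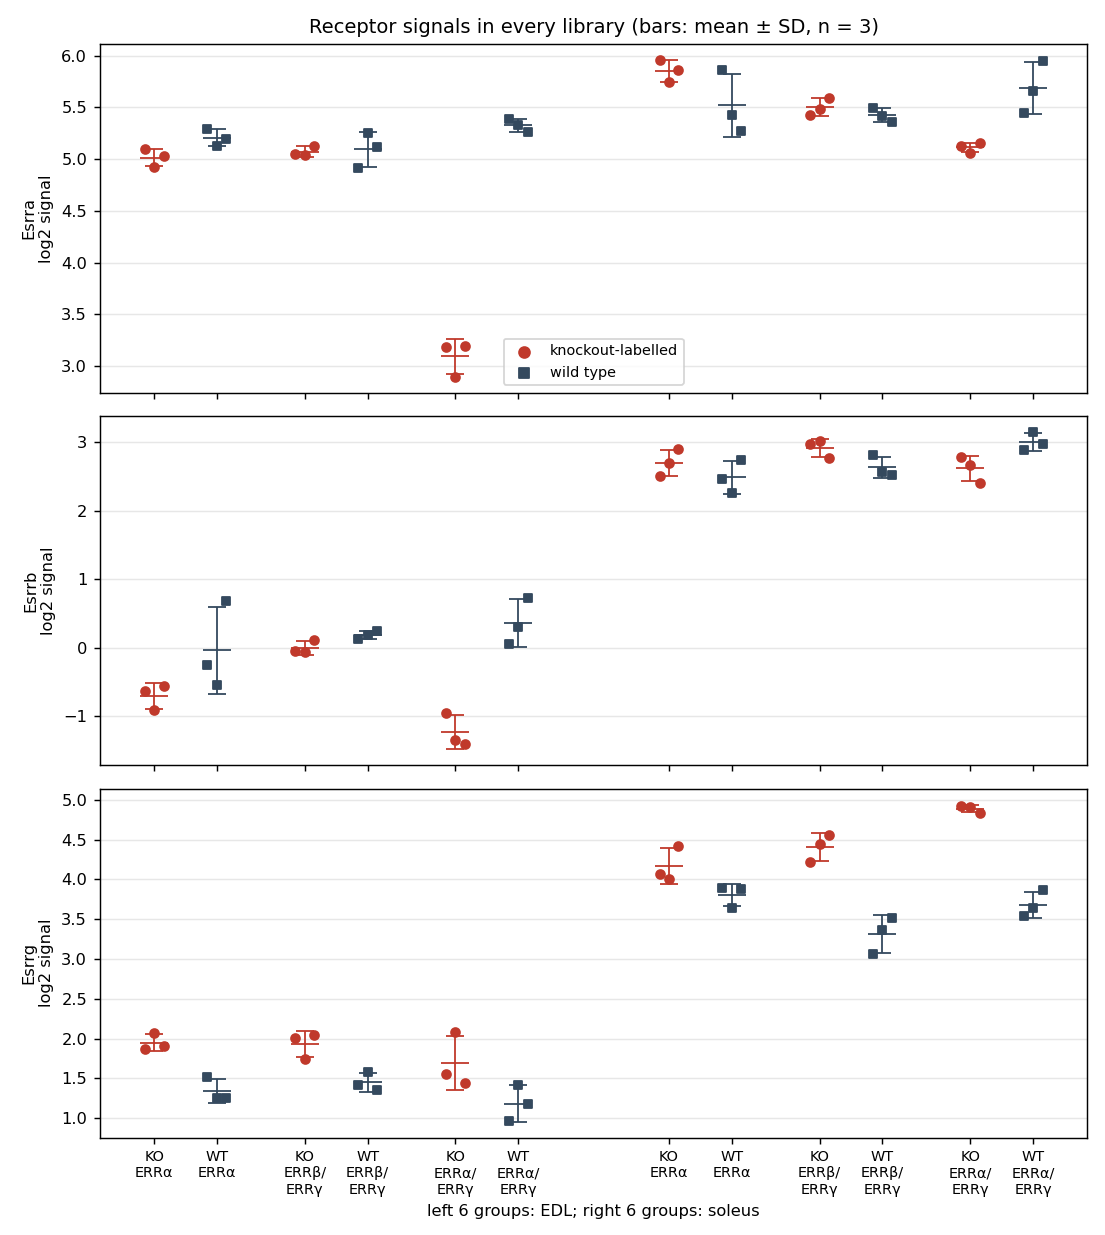
Deposited log2 signal (vertical axis) of Esrra, Esrrb and Esrrg in every library, by muscle and class, with knockout-labelled libraries (circles) left of wild-type libraries (squares); bars give the mean and SD of 3 libraries. Esrrg libraries of every knockout-labelled group lie above the wild types of their own class, and Esrra and Esrrb are lowest in knockout-labelled EDL of the ERRalpha/ERRgamma class.

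Across the 12 groups, 1 group stood apart from the rest in Esrra. Mean signals of the rest ran from 5.85 in knockout-labelled soleus of the ERRalpha class down to 5.01 in knockout-labelled EDL of that class. Libraries overlapped between each group and the next in order, but not between all groups. Knockout-labelled soleus of the ERRalpha/ERRgamma class (5.06 to 5.15) lay below its own wild types (5.45 to 5.95). Knockout-labelled EDL of the ERRalpha/ERRgamma class stood below all of these at 3.09. Esrrb and Esrrg instead split by muscle, with every soleus group above every EDL group. Esrrg reached its highest mean, 4.89, in knockout-labelled soleus of the ERRalpha/ERRgamma class, and none of those libraries overlapped with the next group, knockout-labelled soleus of the ERRbeta/ERRgamma class at 4.41. Esrrb was lowest in knockout-labelled EDL of the ERRalpha/ERRgamma class at -1.24, after knockout-labelled EDL of the ERRalpha class at -0.70.

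Esrra, the receptor targeted in the ERRalpha and ERRalpha/ERRgamma classes, fell in both muscles of the ERRalpha/ERRgamma class. In EDL its log2 signal was 3.19, 2.90 and 3.20 in knockout-labelled libraries, against 5.38, 5.33 and 5.26 in wild-type libraries. Every knockout-labelled library was lower than every wild type by a wide margin. The change was -2.23 ± 0.12 (SE), leaving 0.213 of the wild-type signal (adjusted p = 3.55e-15). In soleus the signal was 5.12, 5.06 and 5.15 in knockout-labelled libraries, against 5.45, 5.66 and 5.95 in wild-type libraries. The groups again did not overlap, with a smaller gap. The change was -0.57 ± 0.12, or 0.673 of the wild-type signal (adjusted p = 0.00084). The ERRalpha/ERRgamma class had 18.1% of all genes called in EDL and 12.7% in soleus. The change in soleus minus that in EDL was 1.66 ± 0.16 (adjusted p = 5.69e-08), in a comparison that called 2.07% of genes. In this class the muscles came mostly from different animals. Of its EDL libraries, only knockout-labelled library 3 and wild-type library 2 came from animals that also gave soleus. Muscle and animal are thus largely confounded here.

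In the ERRalpha class, which targets the same gene, no change of Esrra was called. EDL signals were 5.09, 4.92 and 5.03 in knockout-labelled libraries, against 5.29, 5.12 and 5.20 in wild-type libraries. All 3 knockout-labelled libraries were below the wild types, closely. The change was -0.19 (95% interval -0.43 to 0.047, adjusted p = 0.482). In soleus, signals were 5.96, 5.74 and 5.86 in knockout-labelled libraries, against 5.86, 5.43 and 5.27 in wild-type libraries. These groups overlapped, and the knockout-labelled mean was the higher one. The change was 0.33 (95% interval 0.097 to 0.57, adjusted p = 0.224), and without wild-type library 1 it was 0.50 and called (adjusted p = 0.0259). This class called 3.28% of genes in EDL and 0.71% in soleus.

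The test of the difference between these classes was called in both muscles. The change of Esrra in the ERRalpha/ERRgamma class minus that in the ERRalpha class was -2.04 ± 0.16 in EDL (adjusted p = 2.78e-10) and -0.91 ± 0.16 in soleus (adjusted p = 0.000693). These comparisons called 4.81% of genes in EDL and 4.75% in soleus. Each class was a separate set of mice with its own wild types, so class and litter cannot be told apart.

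In the ERRbeta/ERRgamma class, where Esrra is not targeted, its change was -0.022 in EDL (95% interval -0.26 to 0.21, adjusted p = 0.994) and 0.074 in soleus (95% interval -0.16 to 0.31, adjusted p = 0.76), or 0.081 without library 2 of knockout-labelled soleus. The intervals leave out a rise of more than 0.31 on the log2 scale. Esrra fell further in the ERRalpha/ERRgamma class than in this class in EDL (-2.21 ± 0.16, adjusted p = 3.83e-11, 6.87% of genes called). In soleus that difference was -0.65 ± 0.16 (adjusted p = 0.0411, 1.2% of genes called), and its call was lost when any 1 of 9 libraries was left out (-0.76 to -0.51 over all 12), with recentred libraries and with no intensity trend.

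Trmt112, the gene that overlaps the end of Esrra, moved the other way in the ERRalpha/ERRgamma class. It rose by 0.64 ± 0.11 in EDL (adjusted p = 0.000109) and by 0.36 ± 0.11 in soleus (adjusted p = 0.0324). Its signal was 4.72 ± 0.084 in knockout-labelled and 4.08 ± 0.043 in wild-type EDL (SD, n = 3 each). It was not called in the ERRalpha or ERRbeta/ERRgamma class, and its part in the signal of Esrra was not tested.

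Esrrb, targeted in the ERRbeta/ERRgamma class, was not called there in either muscle. In EDL its signal was -0.05, -0.07 and 0.11 in knockout-labelled libraries, against 0.12, 0.18 and 0.23 in wild-type libraries. The groups were adjacent without overlap. The change was -0.18 (95% interval -0.61 to 0.24, adjusted p = 0.947). In soleus, signals were 2.97, 3.02 and 2.76 in knockout-labelled libraries, against 2.81, 2.57 and 2.52 in wild-type libraries. The groups overlapped. The change was 0.28 (95% interval -0.14 to 0.71, adjusted p = 0.459), or 0.23 without knockout-labelled library 2. This class called 0.218% of genes in EDL and 6.71% in soleus.

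Esrrb fell in knockout-labelled EDL of the ERRalpha/ERRgamma class, where it is not targeted. Its signal was -0.95, -1.35 and -1.41 in knockout-labelled libraries, against 0.05, 0.30 and 0.73 in wild-type libraries. The lowest wild type was above the highest knockout-labelled library. The change was -1.60 ± 0.21, leaving 0.331 of the wild-type signal (adjusted p = 9.67e-07). In soleus of the same class, signals were 2.78, 2.66 and 2.41 in knockout-labelled libraries, against 2.88, 3.14 and 2.98 in wild-type libraries. These groups did not overlap either, but the change of -0.39 was not called (95% interval -0.81 to 0.041, adjusted p = 0.257). The change in soleus minus that in EDL, mostly from different animals in this class, was 1.21 ± 0.30 (adjusted p = 0.0215). That call was lost when any 1 of 6 libraries was left out, and the difference ran from 1.02 to 1.36 over all 12.

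In EDL of the ERRalpha class, Esrrb was -0.64, -0.92 and -0.56 in knockout-labelled libraries, against -0.25, -0.54 and 0.68 in wild-type libraries. Wild-type library 3 stood well above the other 2. The change was -0.66 (95% interval -1.09 to -0.24) and missed the threshold (adjusted p = 0.0799). Without wild-type library 2 it was -0.92 and called (adjusted p = 0.0176), and without wild-type library 3 it was -0.31. In soleus of that class the change was 0.22 (95% interval -0.21 to 0.64, adjusted p = 0.789). Over the 3 classes, each of the 9 knockout-labelled EDL libraries had less Esrrb than all 3 wild types of its own class, and the mean change was -0.81 (exact permutation within classes, p = 0.00025, the smallest possible, and 0.0005 adjusted over 6 tests). In soleus, 3 of 9 were below and 3 above, and the mean change was 0.037 (exact p = 0.741).

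Esrrg was the receptor with more signal in knockout-labelled muscle. In soleus of the ERRalpha/ERRgamma class its signal was 4.92, 4.92 and 4.84 in knockout-labelled libraries, against 3.54, 3.64 and 3.86 in wild-type libraries. The knockout-labelled libraries were close together and far above every wild type. The change was 1.21 ± 0.15, a 2.31-fold higher signal (adjusted p = 9.94e-07). For soleus of the ERRbeta/ERRgamma class the signal was 4.22, 4.45 and 4.56 in knockout-labelled libraries, against 3.06, 3.36 and 3.52 in wild-type libraries. The groups were again apart. The change was 1.09 ± 0.15, or 2.13-fold (adjusted p = 5e-05). Without library 2, which had fewer genes with a value than the rest of its knockout-labelled group, it was 1.07 (adjusted p = 0.00011). The wild types of this class had less Esrrg than every other soleus wild type. Those ran from 3.54 to 3.86 in the ERRalpha/ERRgamma class and from 3.65 to 3.90 in the ERRalpha class. The summed signal of 5 leukocyte markers was 3.73 to 48.6 in knockout-labelled soleus of the ERRbeta/ERRgamma class and 2.84 to 8.97 in its wild types. Of these markers Cd3e had no value in either group. The 4 tested had a median change of 1.42 and none was called. Their part in the result was not tested.

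In soleus of the ERRalpha class, where Esrrg is not targeted, its signal was 4.07, 4.0 and 4.42 in knockout-labelled libraries, against 3.90, 3.65 and 3.88 in wild-type libraries. The knockout-labelled libraries were all higher, by little. The change was 0.36 (95% interval 0.053 to 0.66) and was not called (adjusted p = 0.354). The difference between the ERRalpha/ERRgamma and ERRalpha classes was called (0.85 ± 0.21, adjusted p = 0.0142). That between the ERRbeta/ERRgamma and ERRalpha classes was not (0.73, 95% interval 0.30 to 1.17, adjusted p = 0.102, 0.532% of genes called).

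In EDL the 3 classes had similar changes of Esrrg. In the ERRalpha class the signal was 1.87, 2.07 and 1.91 in knockout-labelled libraries, against 1.51, 1.25 and 1.25 in wild-type libraries. The groups did not overlap. The change was 0.61 ± 0.15, or 1.53-fold (adjusted p = 0.0198). The call was lost without knockout-labelled library 2 or 3 or wild-type library 2 or 3, with changes of 0.55 to 0.70 over the 6 left-out libraries. In the ERRbeta/ERRgamma class the signal was 2.01, 1.74 and 2.05 in knockout-labelled libraries, against 1.42, 1.58 and 1.35 in wild-type libraries. The groups did not overlap, and the change of 0.48 was not called (95% interval 0.18 to 0.79, adjusted p = 0.26).

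In the ERRalpha/ERRgamma class the EDL signal of Esrrg was 1.55, 2.08 and 1.45 in knockout-labelled libraries, against 0.96, 1.41 and 1.18 in wild-type libraries. Knockout-labelled library 2 was well above the rest, and the other 2 were just above the highest wild type. The change was 0.51 ± 0.15, or 1.42-fold (adjusted p = 0.0154). It was 0.31 without knockout-labelled library 2 (adjusted p = 0.173) and 0.40 without wild-type library 1 (adjusted p = 0.106). The median change of all genes tested was 0.13 in this comparison, and relative to it Esrrg was 0.38 higher and not called (adjusted p = 0.0871). In soleus of this class the median was 0.11, and Esrrg relative to it was 1.09 higher and still called. The difference between classes was called for Esrrg in none of the 3 EDL comparisons, with 95% intervals reaching from -0.56 to 0.46 (0.415% of genes called between the ERRbeta/ERRgamma and ERRalpha classes). The muscles of the ERRalpha/ERRgamma class differed by 0.70 ± 0.21 in its change, which did not pass (adjusted p = 0.093). In the ERRalpha and ERRbeta/ERRgamma classes this test called no receptor. It called 0.0151% and 0.21% of genes there, or 9 and 107 genes with the animal as block in place of 2 and 28. In the ERRalpha class the change in soleus minus that in EDL was 0.52 for Esrra (95% interval 0.19 to 0.86, adjusted p = 0.344). For Esrrb it was 0.88 (0.27 to 1.48, adjusted p = 0.394). In the ERRbeta/ERRgamma class it was 0.61 for Esrrg (0.18 to 1.04, adjusted p = 0.216). The other intervals of these classes held both signs.

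Over the classes, each of the 9 knockout-labelled libraries had more Esrrg than all 3 wild types of its own class, in EDL and again in soleus. The mean change was 0.53 in EDL and 0.89 in soleus (exact permutation within classes, p = 0.00025 each, the smallest possible, and 0.0005 adjusted over 6 tests). Knockout-labelled libraries of Esrrg ran from 1.45 through a median of 1.91 to 2.08 in EDL, against 0.96, 1.35 and 1.58 in wild types. In soleus they ran from 4.0 through 4.45 to 4.92, against 3.06, 3.64 and 3.90 in wild types. In soleus the ranges of the 9 and 9 libraries did not overlap at all. For Esrra, the mean change was -0.82 in EDL (exact p = 0.0075, adjusted p = 0.0112) and -0.054 in soleus (exact p = 0.675). In EDL, 6 of the 9 knockout-labelled libraries had less Esrra than all their own wild types, and all 6 were of the ERRalpha and ERRalpha/ERRgamma classes.

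**Figure D2:**
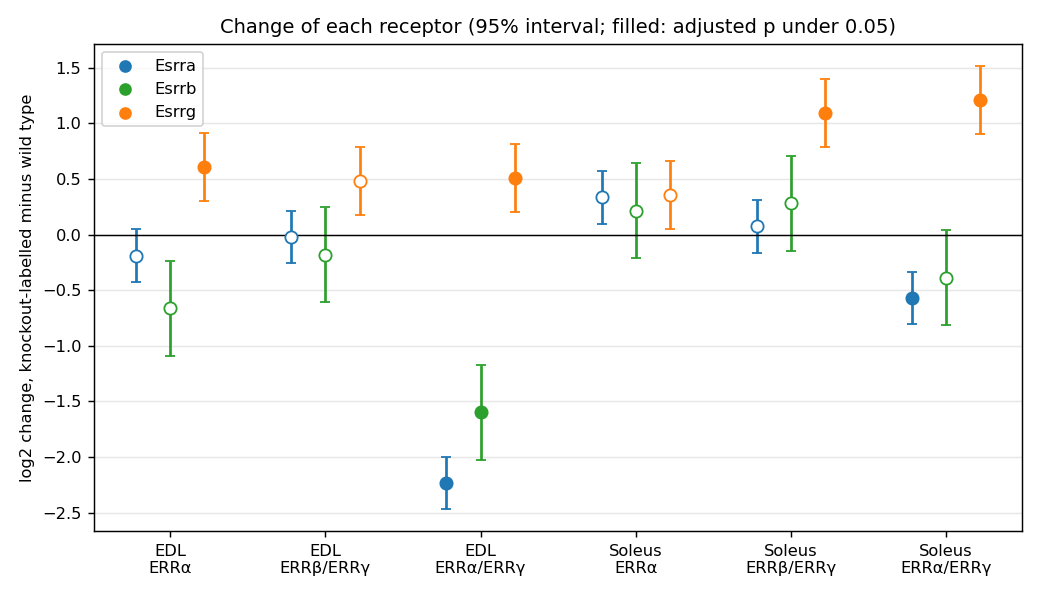
Change of each receptor on the log2 scale (vertical axis, knockout-labelled minus wild type) in the 6 comparisons, with 95% intervals from limma; filled points have an adjusted p under 0.05. Esrrg lies above 0 in all 6, while Esrra and Esrrb lie furthest below 0 in EDL of the ERRalpha/ERRgamma class, at -2.23 and -1.60.

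Over the 3 classes together, the balance of receptor signals moved toward Esrrg in knockout-labelled muscle. The ERRbeta/ERRgamma and ERRalpha/ERRgamma classes target Esrrg itself, and a shortened transcript of it may still be counted. In the ERRalpha class, which does not target Esrrg, Esrrg minus Esrra was 0.80 higher in knockout-labelled EDL and 0.024 higher in knockout-labelled soleus than in wild types. Esrrg minus Esrra was, over the 3 classes, 1.35 higher in knockout-labelled EDL than in wild-type EDL and 0.94 higher in soleus (exact permutation within classes, p = 0.00025 and 0.00225, adjusted over 8 tests to 0.001 and 0.0045). Esrrb minus Esrrg was 1.35 lower in EDL (a difference of -1.35, adjusted p = 0.001) and 0.85 lower in soleus (-0.85, adjusted p = 0.002, exact permutation). Esrrb minus Esrra did not pass, with differences of 0.00098 in EDL (exact p = 0.998) and 0.091 in soleus (exact p = 0.471). The EDL mean joined opposite signs: -0.47 in the ERRalpha class, -0.16 in the ERRbeta/ERRgamma class and 0.64 in the ERRalpha/ERRgamma class. In soleus the values were -0.12, 0.21 and 0.18 in the same order. A single class of 3 against 3 cannot go below an exact p of 0.10, so classes are given as values.

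In soleus of the ERRalpha/ERRgamma class, Esrra made up 49.1% ± 1.85 of the summed signal in knockout-labelled and 71.1% ± 1.96 in wild-type libraries (SD, n = 3 each). Esrrg made up 42.1% ± 1.04 in knockout-labelled and 17.8% ± 0.70 in wild-type libraries. Esrrg minus Esrra was -0.22 ± 0.088 in knockout-labelled and -2.0 ± 0.088 in wild-type libraries, so that the pair came to nearly equal signals. Both genes are targeted in that class, so shortened transcripts may be counted in these signals. In EDL of that class, Esrra made up 69.6% ± 7.01 in knockout-labelled and 91.8% ± 1.40 in wild-type libraries, and Esrrg 26.9% ± 7.15 in knockout-labelled and 5.24% ± 0.85 in wild-type libraries. Within soleus of the ERRbeta/ERRgamma class, Esrrg made up 28.7% ± 1.61 in knockout-labelled and 17.0% ± 2.97 in wild-type libraries. Knockout-labelled library 2 had 29.2%, within the range of the other 2. The share of Esrrg in soleus of the ERRalpha class was 21.9% ± 2.53 in knockout-labelled and 21.4% ± 2.80 in wild-type libraries, a difference within their spread.

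The summed signal of the 3 receptors in EDL of the ERRalpha/ERRgamma class was 12.3 ± 0.24 in knockout-labelled and 43.7 ± 1.27 in wild-type libraries. In soleus of the same class it was 70.4 ± 1.33 in knockout-labelled and 72.8 ± 10.7 in wild-type libraries. The sums thus stood far apart in EDL and within the wild-type spread in soleus. Each sum includes any shortened transcript of a targeted receptor that was counted. In the ERRalpha class the sum was 36.8 ± 1.66 and 40.5 ± 2.44 in knockout-labelled and wild-type EDL, and 82.5 ± 5.64 and 66.2 ± 10.5 in knockout-labelled and wild-type soleus. In the ERRbeta/ERRgamma class it was 38.5 ± 1.58 and 38.2 ± 4.13 in knockout-labelled and wild-type EDL, and 74.2 ± 4.64 and 59.2 ± 1.14 in knockout-labelled and wild-type soleus, where knockout-labelled library 2 had 74.7, between the 69.3 and 78.5 of the other 2. Over the classes the log2 sum was 0.65 lower in EDL (a difference of -0.65) and 0.20 higher in soleus (exact permutation, adjusted p = 0.0273 each). These means joined unlike classes. In EDL the values were -0.14 in the ERRalpha class, 0.016 in the ERRbeta/ERRgamma class and -1.83 in the ERRalpha/ERRgamma class. In soleus they were 0.33, 0.32 and -0.038 in the same order. The mean soleus difference was 0.17 and missed the threshold after recentring of the libraries or without wild-type library 1 of the ERRalpha/ERRgamma class.

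**Figure D3:**
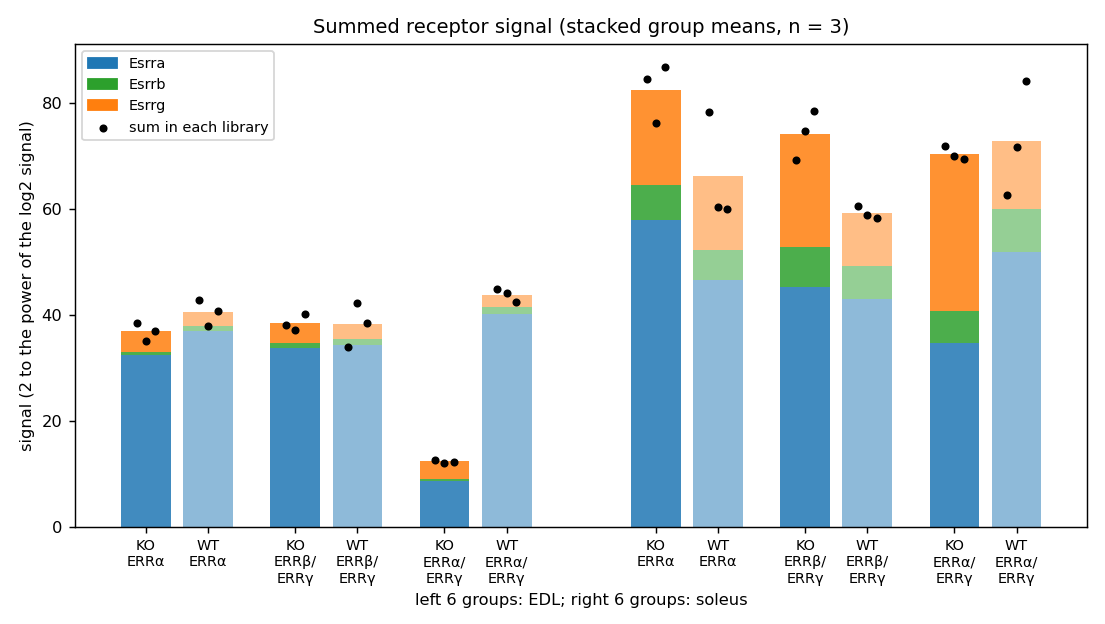
Linear signal (2 to the power of the log2 signal, vertical axis from 0) of the 3 receptors stacked as group means of 3 libraries, with points for the sum in each library and knockout-labelled bars left of the paler wild-type bars. The sum is 12.3 in knockout-labelled and 43.7 in wild-type EDL of the ERRalpha/ERRgamma class, and 70.4 and 72.8 in soleus of that class, where Esrrg fills more of the bar.

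Coregulators through which the receptors act were described next. In EDL of the ERRalpha/ERRgamma class 2 of 17 listed coregulators were called (Perm1 and Tbl1xr1), in soleus of the ERRbeta/ERRgamma class 2 (Perm1 and Ncor1) and in soleus of the ERRalpha/ERRgamma class 2 (Ppargc1a and Perm1). That is 11.8% of the list each time, beside 18.1%, 6.71% and 12.7% of all genes. Of the 17, limma called 0 in either muscle of the ERRalpha class or in EDL of the ERRbeta/ERRgamma class, where 2 in EDL and 2 in soleus of the ERRalpha class and 0 in ERRbeta/ERRgamma EDL had an unadjusted p under 0.05. Perm1, a muscle-enriched partner of PGC-1alpha and the ERRs, was lower in knockout-labelled EDL of the ERRalpha/ERRgamma class (-0.95 ± 0.18, adjusted p = 0.000243), and in soleus of the ERRbeta/ERRgamma class (-0.73 ± 0.18, adjusted p = 0.0121) and the ERRalpha/ERRgamma class (-0.57 ± 0.18, adjusted p = 0.0333). Its signal in EDL of the ERRalpha/ERRgamma class was 4.50 ± 0.21 in knockout-labelled and 5.45 ± 0.36 in wild-type libraries (SD, n = 3 each). Tbl1xr1 and Ncor1, which encode parts of a corepressor complex, changed by 0.33 ± 0.11 and -0.39 ± 0.10 in the comparisons that called them.

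Ppargc1a, which encodes PGC-1alpha, rose in soleus of the ERRalpha/ERRgamma class. Its signal there was 4.67 ± 0.42 in knockout-labelled and 3.11 ± 0.53 in wild-type libraries, ranging from 4.31 to 5.13 and from 2.68 to 3.70, without overlap. The change was 1.56 ± 0.45 (adjusted p = 0.0176). Its other 5 changes were not called, with values from 0.15 to 0.90. Ppargc1b, which encodes PGC-1beta, and Nrip1, which encodes the corepressor RIP140, were called in none of the 6 comparisons. In wild types limma called 13 of the 17 coregulators between the muscles (76.5%, beside 54.4% of all genes), 7 higher and 6 lower in soleus. Prox1 had the lowest p and was 5.44 ± 0.24 higher in soleus (adjusted p = 5.57e-17). Perm1 was 0.84 ± 0.10 higher and Ppargc1a 1.13 ± 0.26 higher in soleus than in EDL (adjusted p = 6.26e-08 and 0.00048). Nrip1 was lower in soleus (-0.83 ± 0.13, adjusted p = 2.08e-06), as was Ep300 (-0.37 ± 0.05, adjusted p = 5.55e-07).

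Of the 35 nuclear receptor genes kept, the 3 ERRs included, 2 rose and 4 fell in knockout-labelled EDL of the ERRalpha/ERRgamma class, 2 rose and 4 fell in soleus of the ERRbeta/ERRgamma class, and 4 rose and 2 fell in soleus of the ERRalpha/ERRgamma class. In EDL of the ERRalpha class 1 rose, which was Esrrg. In EDL of the ERRbeta/ERRgamma class and soleus of the ERRalpha class limma called 0, with 3 and 2 of the 32 receptors other than the ERRs at an unadjusted p under 0.05. The 6 called in each of these 3 comparisons are 17.1% of the 35 and include the ERRs that were called, beside 18.1%, 6.71% and 12.7% of all genes. Ppara, the fatty acid receptor PPARalpha, fell in all 3 of the first-named comparisons (-1.64 ± 0.17, -0.75 ± 0.17 and -1.06 ± 0.17). It was 1.37 ± 0.10 higher in wild-type soleus than in wild-type EDL (adjusted p = 5.08e-13).

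A list of 34 genes known as ERR targets in muscle or heart was described by class. It holds genes of the respiratory chain, the tricarboxylic acid cycle, fatty acid use and mitochondrial dynamics, and shares Perm1 and Ppara with the lists above. In wild types 21 of the 34 were higher and 2 lower in soleus than in EDL, where 30.8% of all genes were higher and 23.6% lower. They included Fabp3 (2.71 ± 0.16), a fatty acid binding protein, Lpl (2.08 ± 0.11), the lipoprotein lipase, and the oxygen carrier Mb (1.94 ± 0.10). Of these 34, 30 fell and the rest were not called in knockout-labelled EDL of the ERRalpha/ERRgamma class, where 6.95% of all genes fell and 11.1% rose, and the median change was -1.38, against 0.13 over all genes tested. The lowest p-values among them went to Cyc1 (-2.14 ± 0.09), which encodes cytochrome c1, Sdhb (-2.07 ± 0.08), a subunit of succinate dehydrogenase, and Ndufb5 (-2.02 ± 0.08), a subunit of complex I. Soleus of that class had 30 of 34 lower and the rest not called, where 5.86% of all genes fell and 6.84% rose, with a median of -0.67, against 0.11 over all genes. Here Mfn1, which encodes the outer membrane fusion protein mitofusin 1, fell by 1.46 and Slc25a4, the ADP/ATP carrier, fell by 1.33, while Sdhb fell by 1.05. The fall was smaller in soleus than in EDL for 17 of the 34 by the test of that difference, in which 1.5% of all genes were called in that direction.

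Soleus of the ERRbeta/ERRgamma class had 12 of 34 lower and the rest not called, where 3.55% of all genes fell and 3.16% rose, with a median of -0.28, against 0.053 over all genes. Acsl1, which activates fatty acids, changed by -1.14 ± 0.17, Mfn1 by -0.57 ± 0.08 and Sdhb by -0.51 ± 0.08. In EDL of that class 1 fell, Lpl (-1.11 ± 0.19), where 0.158% of all genes fell, with a median of -0.092. In the ERRalpha class 6 fell in EDL, led by Mfn1 (-0.75 ± 0.08), Cycs (-0.60 ± 0.09), which encodes cytochrome c, and Slc25a4 (-0.40 ± 0.10), with a median of -0.14, where 1.46% of all genes fell and 1.82% rose. Its soleus had 2 lower, Mfn1 (-0.45 ± 0.08) and Slc25a4 (-0.45 ± 0.10), where 0.247% of all genes fell, with a median of -0.0016. Mfn1 was called in every comparison except EDL of the ERRbeta/ERRgamma class.

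**Figure D4:**
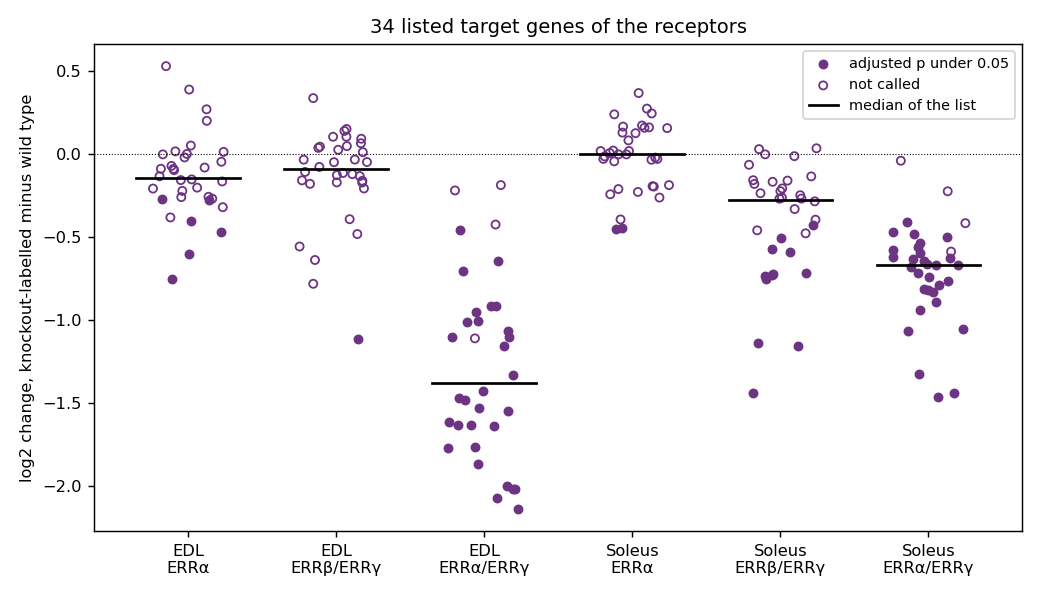
Change of each of 34 listed ERR target genes on the log2 scale (vertical axis, knockout-labelled minus wild type) in the 6 comparisons, 1 point per gene, filled where the adjusted p is under 0.05, with a line at the median of the list. The median is -1.38 in EDL and -0.67 in soleus of the ERRalpha/ERRgamma class, where 30 of 34 fell in each muscle.

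Fibre markers were measured beside these changes, since the receptors differed between wild-type soleus and EDL. In EDL of the ERRalpha/ERRgamma class 5 of 8 slow fibre genes rose and 1 fell, where 11.1% of all genes rose and 6.95% fell, and their summed signal was 25.3 to 144 in knockout-labelled and 29.7 to 102 in wild-type libraries. In EDL of the ERRbeta/ERRgamma class 2 fell, Myl2 and Myl3, where 0.158% of all genes fell, and the sum was 21.3 to 41.6 in knockout-labelled and 94.7 to 103 in wild-type libraries. In soleus none of the slow fibre genes was called in any class, and of 9 fast fibre genes 1 rose in the ERRbeta/ERRgamma class, where 3.16% of all genes rose, and 1 rose and 1 fell in the ERRalpha/ERRgamma class, where 6.84% rose and 5.86% fell. Their part in the changes of the receptors was not tested. In bulk muscle, fewer fibres of a type and less RNA per fibre cannot be told apart.

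The genes whose signals followed each receptor most closely across the 36 libraries were described by Pearson correlation over 11913 genes with a value everywhere. The libraries share muscles and classes, so these values describe the design as well as the genes. For Esrra they were Got2 (0.970), Sdhc (0.968), Afg3l2 (0.964), Sdhd (0.963) and Timm17a (0.956), all encoding mitochondrial proteins. For Esrrb they were Phb2, Casq2, Prdx6, Homer2 and Mavs (0.963 to 0.969), and for Esrrg they were Gbp6, Dnajb4, Ablim1, Ampd3 and Large (0.945 to 0.960).

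With the mean of each muscle subtracted, the order changed. Esrra was then closest to Cyc1 (0.976), Uqcr10 (0.969), Chchd10 (0.968), Sdhd (0.963) and Uqcrc1 (0.962). Esrrb was closest to Ndufb6 (0.828), Lpgat1 (0.809), Phb2 (0.789), Cox7a2 (0.789) and Atp5g1 (0.786), and Esrrg to Gbp10 (0.791), Socs6 (0.791), Fam104a (0.762), Mllt11 (0.754) and Aebp1 (0.743). Sdhd was in both lists for Esrra, and Phb2 in both for Esrrb. Spearman correlations of the 5 genes of Esrra were 0.791 to 0.913 with muscle means subtracted and 0.799 to 0.875 in levels. Which genes came closest depended on the measure. Of the 5 genes by levels, Spearman correlation kept 0 for Esrra, 2 for Esrrb and 1 for Esrrg. The group furthest from the rest in Esrra was knockout-labelled EDL of the ERRalpha/ERRgamma class, and its weight in these correlations was not tested.

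The ERR response element was looked for in the RefSeq promoters of the receptors on GRCm38.p6, 250 bases before to 50 after each start. None of the 7 windows of Esrra, Esrrb and Esrrg held TNAAGGTCA on either strand, a motif found in 1.28% of 32851 mouse windows. The shorter AAGGTCA, contained in it, was in 4.72% of windows and the core AGGTCA in 16.3%, and neither was in the 7. No match says only that these letters are not in these windows.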

How the data were processed

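Directional RNA libraries (NEBNext Ultra II, 400 ng of RNA, 10 PCR cycles, per the labels' protocols) were measured in 36 samples, with 3 biological replicates per group per the series design. The authors deposited log2 signals, log transformed and quantile normalized per the table's name; base 2 was inferred from the spacing of low values. Partek 6.6 and the builds GRCm38.p6 and mm10 are named in the submitters' processing notes; the aligner, the counting method and the original unit were not given in the sources used here. Read totals were removed by the normalization, so depth is unknown and only the number of genes detected and the replicates limit precision.

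Columns were matched to groups by muscle, class letters and Cre mark (FXp read as floxed with Cre, FX- as floxed without). In EDL, the ERRalpha columns lack the class letter, so the animal number shared with a soleus column placed them in their class. Library numbers follow column order and are names only, since the columns hold no replicate numbers. Of 45802 rows, 27904 had no value and 27 had symbols turned to dates and were left out. Genes with a mean over all libraries above the 25th percentile (-5.24, missing values counted at the lowest value, -8.21) were kept, 13404 in all. All 36 libraries entered 1 limma fit of the group means (limma 3.58.1, R 4.3.3, trend on intensity), and calls needed an adjusted p (Benjamini-Hochberg, per comparison) under 0.05; missing values stayed missing and no pseudocount was added. Receptor ratios and sums were tested by exact two-sided permutation of libraries within classes for knockout-labelled against wild type. For wild-type soleus against EDL, 9 against 9 libraries were permuted across classes. Sign changes within animal were used for the 7 wild-type animals with both muscles. The fit was tested on simulated data.

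Animals with both muscles (14) share a number, and deviations of the pairs correlated at -0.068 to 0.324 (median 0.0966); a fit with the animal as block was an alternative. Members, lists and tests were chosen with earlier results of these data known. Named genes were the receptors, Ppargc1a, Ppargc1b, Perm1, Nrip1, the 5 genes most like each receptor, the 5 nuclear receptor genes of highest wild-type signal (1 of them is not reported here), and up to 3 called genes of lowest p per list and comparison; Trmt112, Mfn1 in its other comparisons and the fibre genes were named after their values were seen. Alternatives were other filters, missing values at the lowest value, recentring, no trend, 6 libraries only, single classes, leaving out each library, and Spearman correlation.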

Additional observations from a re-analysis of the deposited data

Results flagged for a closer look

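The change of Esrra in the ERRalpha/ERRgamma class differed between muscles by 1.66 ± 0.16 (SE) in soleus minus EDL (limma, adjusted p = 5.69e-08). Its change was -0.57 in soleus and -2.23 in EDL. The muscles of this class came mostly from different animals, so these are not differences within animals.

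The change of Esrrb in that class differed between muscles by 1.21 ± 0.30 in the same direction (limma, adjusted p = 0.0215). Its change was -0.39 in soleus and -1.60 in EDL. No other receptor or class differed between muscles by this test. No single wild-type library was flagged for any receptor within the 9 wild types of a muscle. The rule used the gap to the nearest library as a share of the range. A high library with a high neighbour would not be flagged by it.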

How the results depend on the processing

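None of the called receptor results changed sign under an alternative; 11 of the 90 receptor results, none of them called, did. The fall of Esrra and Esrrb in EDL and the rise of Esrrg in soleus of the ERRalpha/ERRgamma class kept their calls under every alternative run for them. With only the 6 libraries of a comparison, Esrrg was no longer called in EDL of the ERRalpha class (0.61, adjusted p = 0.0618), EDL of the ERRalpha/ERRgamma class (0.51, adjusted p = 0.129) and soleus of the ERRbeta/ERRgamma class (1.09, adjusted p = 0.0802). The difference in Esrra between the ERRalpha/ERRgamma and ERRbeta/ERRgamma classes in soleus lost its call with recentred libraries (-0.66, adjusted p = 0.0553) and with no intensity trend (-0.65, adjusted p = 0.074), and the log2 summed signal of soleus with recentred libraries (0.17, exact permutation p = 0.0735). With each change taken relative to the median change of all genes, an alternative chosen after seeing the data, Esrrg in EDL of the ERRalpha/ERRgamma class was not called (0.38), and the difference of Esrrb in EDL between the ERRalpha/ERRgamma and ERRalpha classes was (-1.03, adjusted p = 0.0362). Leaving out 1 library at a time, calls were gained or lost for Esrra in soleus of the ERRalpha class (0.21 to 0.50), Esrra in soleus between the ERRalpha/ERRgamma and ERRbeta/ERRgamma classes (-0.76 to -0.51), Esrrb in EDL of the ERRalpha class (-0.92 to -0.31), Esrrb in EDL between the ERRalpha/ERRgamma and ERRalpha classes (-1.29 to -0.68), Esrrb between the muscles of the ERRalpha/ERRgamma class (1.02 to 1.36), Esrrg between those muscles (0.58 to 0.89), Esrrg in EDL of the ERRalpha class (0.55 to 0.70), Esrrg in EDL of the ERRalpha/ERRgamma class (0.31 to 0.63) and the summed signal of soleus (0.17 to 0.25). In the same fits signs changed, without a call, for Esrra in EDL of the ERRbeta/ERRgamma class (-0.11 to 0.056), Esrra and Esrrb in soleus over the classes (-0.10 to 0.0023 and -0.00092 to 0.079), Esrrb in soleus between the ERRbeta/ERRgamma and ERRalpha classes (-0.056 to 0.18), Esrrg in EDL between the ERRalpha/ERRgamma class and the ERRalpha (-0.30 to 0.024) and ERRbeta/ERRgamma (-0.17 to 0.15) classes, Esrrb minus Esrra in EDL over the classes (-0.069 to 0.12) and in ERRalpha soleus (-0.30 to 0.13), Esrrg minus Esrra in ERRalpha soleus (-0.10 to 0.18), and the summed signal in ERRbeta/ERRgamma EDL (-0.066 to 0.091) and ERRalpha/ERRgamma soleus (-0.14 to 0.071). With recentred libraries Esrrg between the ERRalpha/ERRgamma and ERRbeta/ERRgamma classes in EDL was -0.0069, Esrrb between the ERRbeta/ERRgamma and ERRalpha classes in soleus -0.0039 and the summed signal in ERRbeta/ERRgamma EDL -0.011; relative to the median of all genes that Esrrg difference was -0.050 and Esrrb in soleus over the classes -0.014. The causes were not tested. The replicate block by animal changed no call of a receptor, and moved the genes called between muscles to 9 (2 without the block) in the ERRalpha class and 107 (28 without) in the ERRbeta/ERRgamma class. Counts of genes called also moved by over 1.5 times with only 6 libraries (241, 4, 2 and 4, against 436, 29, 95 and 898, for EDL of the ERRalpha and ERRbeta/ERRgamma classes and soleus of the same classes), and to 4179 and 4319 from 7218 for the muscles of single wild-type classes. Between soleus of the ERRbeta/ERRgamma and ERRalpha classes, 71 genes were called, against 111 with recentred libraries, 125 relative to the median and 29 without the trend; between the muscles of the ERRalpha class, 2 genes, against 1, 5 and 1 with no filter, missing values at the lowest value and no trend; between those of the ERRbeta/ERRgamma class, 28 genes, against 8 without the trend. Leaving out 1 library moved these 3 counts over 16 to 878, 1 to 5 and 1 to 521, and those of EDL of the ERRalpha class to 225 to 303 (436 with all), EDL of the ERRbeta/ERRgamma class to 11 to 25 (29), soleus of the ERRalpha class to 25 to 73 (95), EDL between the ERRbeta/ERRgamma and ERRalpha classes to 34 to 55 (55) and soleus between the ERRalpha/ERRgamma and ERRbeta/ERRgamma classes to 122 to 323 (161). Without library 2 of knockout-labelled soleus of the ERRbeta/ERRgamma class, 2139 genes were called there instead of 898; over the 6 libraries left out the count ran from 396 to 2139. Of the 5 genes most like a receptor by Pearson correlation of levels, Spearman correlation kept 0 for Esrra, 2 for Esrrb and 1 for Esrrg, and with muscle means subtracted 2 for Esrrb. Missing values could not change receptor ratios, since the receptors had a value in every library.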
